A study of Mus musculus with 4 samples.

Results

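Peaks of estrogen receptor alpha (ESR1) were called at many positions of the mouse genome in only 1 of liver and uterus. A smaller set was called at the same position in both. A position without a called peak was not shown to be unbound. The sites described here are those where the liver and the uterus peak shared their summit, the base of highest tag density, to within 50 bp, and where the uterus peak held more sequencing tags after scaling. There were 428 of them among 940 coincident pairs on the autosomes, or 45.5% (95% Wilson interval 42.4 to 48.7). A pair was formed where a liver and a uterus peak overlapped by at least 1 bp, and 1651 pairs overlapped in all. The sites were chosen by their tags: each peak's tags were expressed per 1000000 unique ChIP tags of its library (scaled tags), and a pair was taken where the uterus value was above the liver value. Every tag value, fold enrichment and width below is a description with no test. The other 512 coincident pairs, with more liver tags, are called liver-higher and serve as the comparison.

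The samples were flash-frozen liver and uterus of female mice, strain C57BL/6, aged 8 weeks, with no treatment or genetic change named in the labels. Each tissue gave 1 ESR1 ChIP-seq library and 1 input control, so 4 samples in all, and no difference between tissues can be set against a spread between animals. The labels do not say how many animals went into a library. The liver and uterus ESR1 libraries held 20016495 and 22298008 unique tags. The uterus list had 24836 peaks and the liver list 6932, and tags inside peaks made up 8.80% of unique tags in uterus against 2.42% in liver. No expression was measured, so the identity of the tissues was not checked against marker genes, and a lower value cannot be separated into fewer receptor-bearing cells and less binding per cell.

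ESR1 is a nuclear receptor that estrogens switch on. It binds DNA as a dimer, classically at the estrogen response element, an inverted repeat of a short half-site, and it can also be held at DNA by other transcription factors. In the uterus it drives the growth of epithelium and stroma over the estrous cycle, and in liver it takes part in the control of lipid and glucose metabolism. ChIP-seq recovers DNA fragments crosslinked to the receptor, so the tags under a peak rise with the share of cells that are bound there and with the yield of the immunoprecipitation.

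Most uterus-higher sites leaned to the uterus only moderately. The median uterus to liver ratio of scaled tags was 1.59 (quartiles 1.196 and 2.59, range 1.00 to 21.2). Of the 428 sites, 256 had a ratio under 2, 115 had a ratio of 2 to 4, and 57 had a ratio of at least 4, of which 23 reached 8. Over all 940 coincident pairs, 18.3% were at least 2-fold higher in uterus, 6.06% at least 4-fold and 2.45% at least 8-fold; these are the same pairs, so nothing is read from the shares. Among the 512 liver-higher pairs, 141 were at least 2-fold higher in liver, 19 at least 4-fold, and none at least 8-fold, with a lowest uterus to liver ratio of 0.166.

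**Figure D1:**
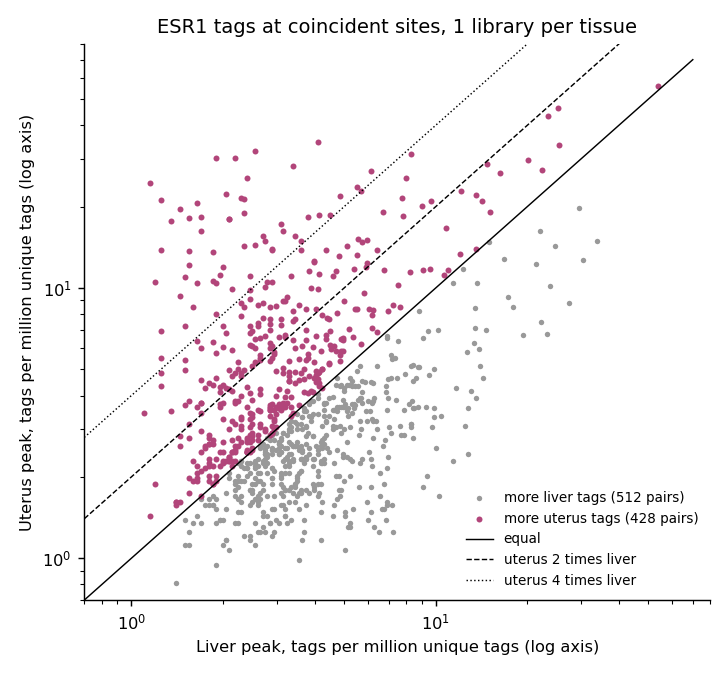
Tags per 1000000 unique tags in the liver peak (horizontal, log axis) and the uterus peak (vertical, log axis) of each of the 940 coincident pairs, 1 point per pair, with 1 library per tissue. The 428 uterus-higher pairs lie above the line of equal values, and the 57 pairs beyond the 4-fold line have liver values of at most 6.14.

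The scaling decides which pairs qualify. Scaling by total instead of unique tags gave the same count of 428, and raw tags gave 480. Scaled by the tags inside each library's own peaks, which allows for the greater enriched share of the uterus library, only 65 pairs, 6.91% (5.46 to 8.72), had the higher value in uterus. Under that scaling the highest uterus to liver ratio was 5.84 and the highest liver to uterus ratio 22.0, against 21.2 and 6.04 with unique tags, so the side with the largest differences turned with the scaling. Counting error also reaches many sites. The 95% interval of the ratio, computed from the tags of both peaks, lay wholly above 1 at 254 of the 428 sites, or 59.3%. It lay wholly below 1 at a similar share of liver-higher pairs, 293 of 512 or 57.2%. Those intervals cover counting error only, each taken on its own.

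Sites at the threshold were near equal in both tissues. The 3 just above a ratio of 1 held 34, 85 and 67 liver tags and 38, 95 and 75 uterus tags, and lay on chromosomes 5, 8 and 17. The 3 pairs just below it, on chromosomes 13, 10 and 4, held 45, 46 and 46 liver tags and 50, 51 and 51 uterus tags. Summits were exactly 50 bp apart at 6 uterus-higher sites, and 2 autosomal pairs with more uterus tags had summits 51 bp apart. On chromosome X, left out by the rule, 5 of 7 coincident pairs had more uterus tags.

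At the sites of highest ratio a uterus peak with many tags stood over a liver peak with few. With at least 30 liver tags required, the highest ratio was on chromosome 15, where the liver peak (mm9 chr15:96398364-96398895) held 38 tags and the uterus peak (chr15:96398163-96400158) held 677. The ratio was 15.99 (counting interval 11.5 to 22.8), and the authors' fold enrichment over control was 9.02 in liver and 88.4 in uterus. The next site, on chromosome 2, held 44 tags in liver (chr2:167586063-167586682) and 675 in uterus (chr2:167585019-167587699), a ratio of 13.8 (10.1 to 19.1). On chromosome 19 the liver peak at chr19:53927059-53927466 held 51 tags and the uterus peak at chr19:53925816-53928201 held 717, a ratio of 12.6 (9.49 to 17.1). On chromosomes 19, 15 and 2 the uterus peaks ranked 23, 30 and 32 by tags in their list, while the liver peaks ranked 4233, 5979 and 5200. By fold enrichment the same liver peaks ranked 381, 5096 and 2676, so not all were low by that measure.

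The other 5 of the 8 sites had narrower uterus peaks and ratios of 10.7 to 12.5. The uterus peak at chr1:165214958-165216097 held 461 tags against 33 in liver, at 110-fold enrichment against 18.9-fold in liver. At chr3:65184890-65185902 the counts were 404 in uterus and 31 in liver. At chr11:57879828-57881031 they were 495 and 41, with summits 3 bp apart. At chr9:99290385-99291338 they were 407 and 34, and at chr10:94601625-94602879 they were 570 and 48. Uterus fold enrichment was 61.5 to 110 at the 8 sites and liver fold enrichment 9.02 to 25.3, so the liver peaks were called well above their local background. Without a minimum of liver tags, 2 sites ranked higher, a choice made after their values were seen. One, at chr11:59988661-59991271 in uterus, held 544 uterus and 23 liver tags (ratio 21.2, interval 14.0 to 33.8), and the other, at chr9:71604578-71605852, held 474 and 25 (17.0, 11.4 to 26.6).

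**Figure D2:**
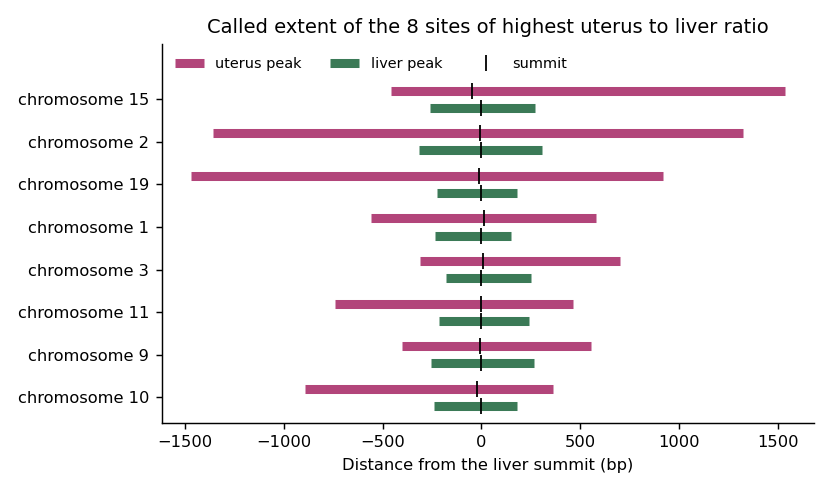
Called extent of the uterus and liver peaks at the 8 uterus-higher sites of highest ratio (at least 30 liver tags), drawn against the distance from the liver summit in bp; bars are the peaks and black ticks their summits. The liver peak lies inside the uterus peak at each site, and the summits are 3 to 46 bp apart.

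The sites with the most uterus tags were of a different kind: several were strong in liver too. One on chromosome 1 held 1033 uterus tags (chr1:38297743-38299884) and 505 liver tags (chr1:38297897-38299972), a ratio of 1.84 (1.65 to 2.05), and ranked 3 and 9 by tags in the uterus and liver lists. A site on chromosome 10 held 963 uterus tags (chr10:39343680-39346429) and 469 liver tags, also at a ratio of 1.84. On chromosome 6 the counts were 755 (chr6:100009483-100010649) and 509, and there the fold enrichment ran the other way, at 89.8 in uterus and 107 in liver. Sites on chromosomes 9 (chr9:34852021-34854002) and 2 (chr2:144049622-144050967) held 772 and 697 uterus tags but only 82 and 166 in liver. The chromosome 15 and 19 sites described above also belong to the 8 with the most uterus tags. Among uterus-higher sites, the one with the most tags in both tissues, chr17:39984382-39985834, held 1250 uterus and 1074 liver tags, rank 2 in each list. Its ratio was 1.04 (0.962 to 1.13), at only 4.60- and 4.75-fold enrichment. It was the single uterus-higher site under 5-fold in both lists. Tags per kb divided by fold, an implied background, were 187 in uterus and 156 in liver there. Those were the highest of the 428 sites, whose medians were 6.30 and 6.87.

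Ranking by enrichment over control in both lists, rather than by tags, named other uterus-higher sites. The best summed rank belonged to chr13:52152511-52153521, with 509 uterus and 242 liver tags and 133- and 88.4-fold enrichment. Next were chr4:41082369-41084291 (468 and 284 tags), chr5:113386708-113387804 (479 and 155 tags) and chr11:70096966-70097711 (296 and 110 tags). At these 4 sites the uterus to liver ratio was 1.48 to 2.77 and the summits were 1 to 13 bp apart. The median distance at all 428 sites was 15 bp (quartiles 8 and 26). The rule keeps only summits within 50 bp, so nothing is read from the closeness at the 4.

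Uterus-higher sites occupied different places in the lists of the tissues. Their uterus peaks were at a median percentile of 85.0 by tags (0 is the weakest peak), with 119 tags in the median (range 32 to 1250), against 55 for all autosomal uterus peaks. Their liver peaks were at a median percentile of 43.6, with 54 tags (22 to 1074), against 58 for all autosomal liver peaks. The rule itself uses these tags. By fold enrichment the median percentiles were 77.7 in uterus and 62.5 in liver. At 61 sites the uterus peak was in the top 10% of its list by tags and the liver peak in the lower 50%. At 46 sites both were in the top 10% by tags. Among the 512 liver-higher pairs the counts were 0 and 23. The rule takes pairs with more uterus tags, so it favours the first kind. By tags, sites high in both tissues and sites high in uterus alone both occurred.

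Along the range of ratios the uterus signal differed far more than the liver signal. Sites with a ratio under 2, of 2 to 4 and of at least 4 had median uterus tags of 81.5, 156 and 362. Their median liver tags were 58, 53 and 42. Median uterus fold enrichment was 16.6, 33.8 and 67.8 in the same order, and median liver fold enrichment 11.3, 13.7 and 13.9. Since a liver peak had to pass the calling cutoff, liver values have a floor and uterus values do not have a ceiling. Across the 428 sites, which share their 2 libraries, Spearman's rho between liver and uterus tags was 0.50, a description only. Over all 940 coincident pairs it was 0.26. The rule compares the same tags to choose the sites, so the 0.50 is no measure of agreement between the tissues.

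Fold enrichment over control did not always lie on the same side as the tags. It was higher in uterus at 336 of the 428 sites, or 78.5%, against 53.1% of all coincident pairs; fold comes from the same contrast as the rule, so this is no separate evidence. The median uterus fold enrichment was 24.1 (quartiles 12.8 and 49.2) and the median liver value 12.7 (9.42 and 18.5). At the other 92 sites the fold was not higher in uterus, and these had a median tag ratio of 1.18 and none above 2.55. The background level implied by each peak, its tags per kb divided by its fold, had a median of 10.9 in uterus and 6.87 in liver at these 92 sites, against 5.76 and 6.87 at the 336. The quotient holds the same tags and fold, so it is no separate measurement.

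**Figure D3:**
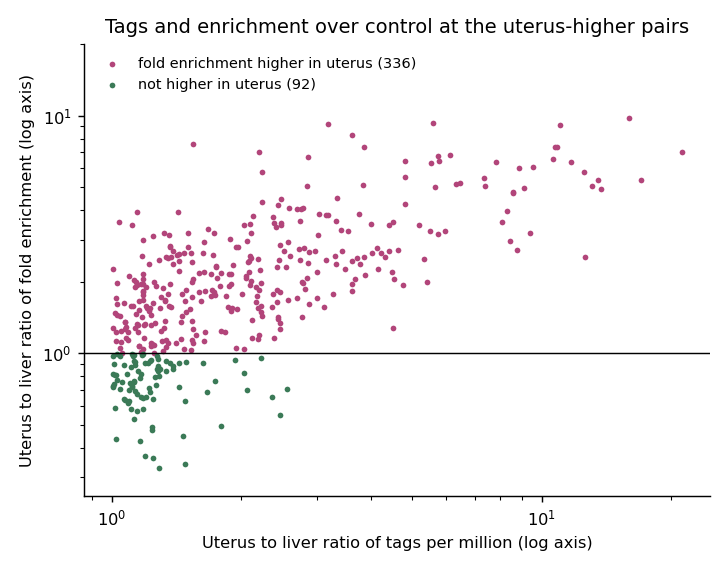
Uterus to liver ratio of scaled tags (horizontal, log axis) against the ratio of the authors' fold enrichment (vertical, log axis) at the 428 uterus-higher sites, 1 point per site. The 92 sites below the line of equal enrichment have tag ratios of at most 2.55.

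The uterus peaks were also wider. Their median width was 770 bp (quartiles 617 and 989) against 600 bp (509 and 713) in liver. The uterus peak was the wider at 347 sites, or 81.1%, against 48.8% of all coincident pairs and 21.9% of liver-higher pairs. At 228 sites the liver peak lay wholly inside the uterus peak, and at 36 the reverse held. Among the 512 liver-higher pairs these counts were 38 and 264, so the nesting went with the side that the rule chose. Median uterus width rose from 689 bp at ratios under 2 to 828 bp at 2 to 4 and 1056 bp at 4 or more, while median liver width was 625, 587 and 531 bp. A wider peak holds more tags, and the tags chose the sites, so the width is no separate evidence. The density is given as well. As scaled tags per kb of peak, the uterus value was higher at 350 of the 428 sites, 81.8%, with a median ratio of 1.40. The share was 43.2% of all coincident pairs and 10.9% of liver-higher pairs. The density holds the same tags that chose the sites, so it is no separate evidence.

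Within the 50 bp that the rule allows, the distance between summits did not move with the ratio. The median distance between the liver and uterus summits was 15 bp (quartiles 8 and 26), and it was 14, 16 and 15 bp at ratios under 2, of 2 to 4 and of at least 4. Summits lay within 10 bp of each other at 149 sites, 34.8% (30.5 to 39.4), against 28.7% (24.96 to 32.8) of liver-higher pairs. The difference was 6.10 percentage points (Newcombe interval 0.141 to 12.1), barely above 0. Pairs were taken as independent and several other traits were compared, so nothing is read from this difference. The uterus summit had the higher coordinate at 215 sites, or 50.2% (45.5 to 54.9). The 57 sites with a ratio of at least 4 had summits 1 to 46 bp apart. The rule left out distances above 50 bp, so the closeness of liver peaks with few tags cannot be judged from this range.

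Uterus-higher sites had other uterus sites near them more often than liver-higher pairs did, but not more often than uterus-only peaks. The neighbours of a site play no part in the rule, so here the sites can be set against the liver-higher pairs. Another uterus summit lay within 10 kb of 196 of the 428 sites, 45.8% (41.1 to 50.5), compared with 144 of 512 liver-higher pairs, 28.1% (24.4 to 32.2). The difference was 17.7 percentage points (Newcombe interval 11.5 to 23.7). Among the 22900 uterus-only peaks, those that no liver peak overlapped, the share was 48.3% (47.7 to 49.0). Another liver summit lay within 10 kb of 107 sites, 25% (21.1 to 29.3), against 32.2% (28.3 to 36.4) of liver-higher pairs, a difference of -7.23 points (-12.9 to -1.41). With neighbours within 20 kb the liver difference was -5.66 points and its interval reached 0 (-11.9 to 0.626). These intervals take pairs as independent, although near pairs can share neighbours, and they describe 2 libraries and not the tissues at large.

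The share with single-tissue neighbours moved with the ratio. Liver-only peaks are likewise those that no uterus peak overlapped. A uterus-only summit lay within 10 kb of 33.6% of sites with a ratio under 2 (28.1 to 39.6), 43.5% at 2 to 4 (34.8 to 52.6) and 52.6% at 4 or more (39.9 to 65.0), against 20.5% of liver-higher pairs (17.2 to 24.2). A liver-only summit lay within 10 kb of 20.3%, 17.4% and 10.5% of the same classes, against 26.0% of liver-higher pairs. The 428 sites had 288 uterus-only and 108 liver-only summits within 10 kb, counted once per site, and the 512 liver-higher pairs had 150 and 195. Intervals of neighbouring classes overlap, so the steps between them are not separated by counting error.

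**Figure D4:**
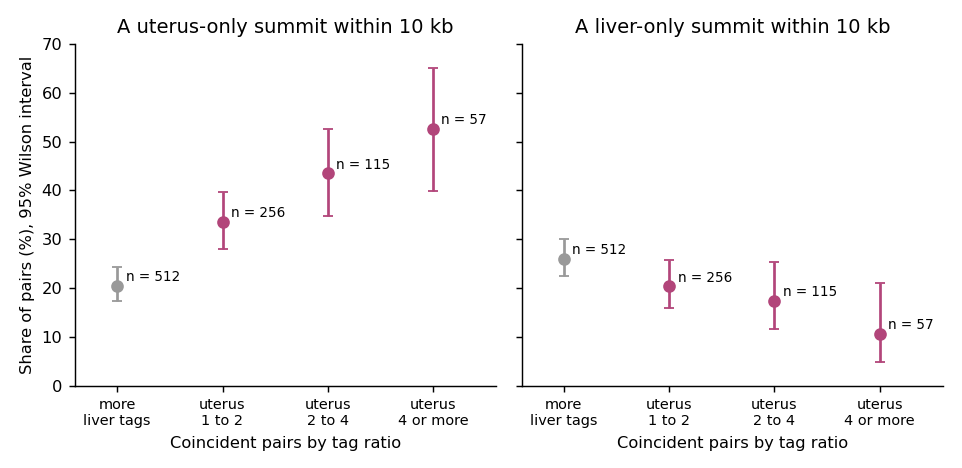
Share of coincident pairs with a uterus-only summit (left) and a liver-only summit (right) within 10 kb, by uterus to liver tag ratio; points are shares and bars 95% Wilson intervals, with the number of pairs beside each. The uterus-only share goes from 20.5% in liver-higher pairs to 52.6% at ratios of 4 or more, and the liver-only share from 26.0% to 10.5%.

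The strength of the uterus peak moved with its neighbours too. Among uterus-only peaks, which have no liver partner, another uterus summit lay within 10 kb of 42.1% of those under 60 tags, 51.6% of those with 60 to 99 and 62.0% of those with 100 or more. Uterus-higher sites in the same ranges had 32.3%, 34.8% and 54.2%, and liver-higher pairs 27.4%, 26.3% and 36.8%. Within a range of uterus tags the 2 kinds of pair thus differed by 4.87 points (-6.71 to 18.1), 8.47 points (-2.58 to 19.5) and 17.3 points (2.96 to 30.2), and only the last interval lay above 0. That last range has no upper end. It held 251 uterus-higher sites, with up to 1250 uterus tags, and 57 liver-higher pairs, with up to 440. Uterus tags were thus not matched within it.

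The named sites differed widely in their surroundings. Of the 8 of highest ratio, the chromosome 10 site had 11 uterus-only and no liver-only summit within 50 kb, the chromosome 1 site 10 and none, and the chromosome 19 site 10 and 2. The chromosome 3 and 11 sites had 1 of each. No liver-only summit lay within 10 kb of any of the 8. The site with the most uterus-only summits within 10 kb, 7 of them beside 2 liver-only, was chr10:79623283-79624884, with 307 uterus and 58 liver tags, and was picked for that count.

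Uterus-higher sites were spread over all autosomes. Their share of the coincident pairs ran from 27.4% on chromosome 7 (17 of 62 pairs, 17.9 to 39.6) to 63.3% on chromosome 13 (19 of 30, 45.5 to 78.1). The intervals of those 2 chromosomes did not overlap, but they were picked as the extremes of 19. Chromosome 11 held the most sites, 40 of 88 pairs or 45.5%.

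**Figure D5:**
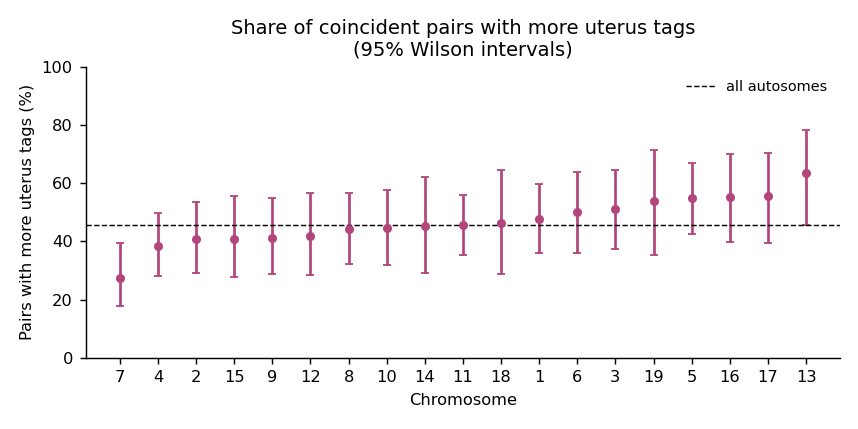
Share of coincident pairs with more uterus tags on each autosome, in increasing order, with 95% Wilson intervals; the dashed line is the share over all autosomes, 45.5%. Only the interval of chromosome 7 lies wholly below that line, and that of chromosome 13 begins almost at it.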

How the data were processed

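ESR1 ChIP-seq peak lists of 1 liver and 1 uterus library were analysed. The authors called peaks in each library against its input with MACS 1.3.7.1 on mm9, per the submitters' processing notes, at a p cutoff of 1e-10, per the file headers; no aligner was named there. Each peak carries a deposited raw tag count, a deposited fold enrichment (a ratio to the local control background), a deposited score of -10 times the log10 of the p-value, and a deposited false discovery rate in percent. Coordinates are those of the deposited lists, taken as 1-based. Peaks that overlapped by 1 bp or more were paired, the summit was start + summit - 1, and tags were divided by the unique tags of the header.

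Shares have 95% Wilson intervals, differences Newcombe intervals and ratios exact conditional binomial intervals. Pairing and ratio intervals were tested on simulated data. The tissues could not be tested against each other, having 1 library each. Members, lists and named sites were chosen with earlier results of these data known. The named sites were the 8 of highest ratio with at least 30 liver tags, the 8 with the most uterus tags, the 4 of smallest summed rank of fold enrichment and 3 on each side of a ratio of 1. Alternatives changed the scaling, measure, distances, overlap and thresholds. Motifs, start sites, gene lists and sequences had been planned but are not analysed here, for want of an mm9 reference. The tools were scipy 1.17.1, numpy 2.4.6, pandas 2.3.3 and matplotlib 3.10.9 under Python 3.11.15.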

Additional observations from a re-analysis of the deposited data

How the results depend on the processing

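Scaling by tags in peaks moved the number of sites most among the alternatives tried. It left 65 sites (6.91% of coincident pairs), with another uterus summit near 58.5% of them and another liver summit near 18.5%. Of the other settings, a MACS score of at least 200 left 165 sites and a fold enrichment of at least 10 left 263, both from shorter lists. The share of coincident pairs that were uterus-higher was 51.1% with raw tags, 53.1% by fold enrichment and 49.0% with summits at most 25 bp apart. The median ratio was 1.45 per kb of peak, 1.47 with an overlap of at least 50% of each peak and 2.03 at a fold enrichment of at least 10. The share with another uterus summit near was 40.7% at a fold enrichment of at least 10, 30.4% within 5 kb and 60.05% within 20 kb. For another liver summit it was 18.8% at a score of at least 200, 16.7% at a fold enrichment of at least 10, 17.8% within 5 kb and 36.9% within 20 kb. The difference in uterus neighbours from liver-higher pairs kept its direction, with an interval above 0, in the 13 alternatives run (13.4 to 23.9 percentage points). None of these alternatives held the uterus tags of the pairs equal. Within ranges of uterus tags, only the interval at 100 or more tags lay above 0. The difference in liver neighbours was negative in all 13, but its interval reached 0 in 5: -11.3 points scaled by tags in peaks, -4.87 by fold enrichment, -6.08 with an overlap of at least 50% of each peak, -4.97 at a score of at least 200 and -5.66 within 20 kb; the cause was not tested. Changing the definition of the sites for the neighbour counts, giving the highest ratios scaled by tags in peaks, and leaving out the pair under 5-fold (427 sites), were chosen after seeing the data. No paired analysis was possible because each tissue had 1 library, and none could be left out. Depth limits the ratios most where liver tags are few: 21 of the 428 sites had fewer than 30.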

Other observations

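Uterus-higher sites did not lie beside one another more than beside liver-higher pairs. Where the nearest other coincident pair was within 100 kb, it was uterus-higher for 64 of 130 uterus-higher sites, 49.2% (Wilson interval 40.8 to 57.7), and for 65 of 116 liver-higher pairs, 56.0% (47.0 to 64.7), a difference of -6.80 percentage points (Newcombe interval -18.9 to 5.63). Within 50 kb the shares were 47.4% (37 of 78) and 47.6% (40 of 84), a difference of -0.183 points (-15.2 to 14.9), and within 500 kb 47.7% and 47.4%. The side to which one coincident site leaned thus gave no detectable hint of the side of its nearest coincident neighbour in these libraries, whereas single-tissue neighbours were unevenly placed. These distances were chosen after seeing the data, near pairs enter from both sides, and the interval within 50 kb leaves room for differences of 14.9 points either way.

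There were 19 runs of uterus-higher sites less than 50 kb apart. No such count is given for liver-higher pairs, so nothing is read from the number. The runs held 41 of the 428 sites, and the longest had 3 sites. One on chromosome 10 spanned 39332692 to 39346429 and held sites with 163, 131 and 963 uterus tags and 62, 43 and 469 liver tags, at ratios of 2.36, 2.73 and 1.84. Another on chromosome 11, at 74643570 to 74652350, held 187, 103 and 96 uterus tags and 121, 82 and 48 liver tags, at ratios of 1.39, 1.13 and 1.80. On chromosome 16, neighbouring sites at 29944040 to 29944507 and 29945348 to 29946870 had nearly equal liver tags, 57 and 55, but 171 and 332 uterus tags. On chromosome 11, the site at 59988661 with the highest ratio of all, 21.2, lay within 50 kb of one at 60036106 with 91 uterus and 76 liver tags, a ratio of 1.07 (0.784 to 1.48). These runs were picked after their values were seen.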
